A study of Mus musculus with 6 samples.

Results

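The genes described here encode soluble hydrolases of the lysosome and proteins of its membrane. They were taken from a list of 37 gene symbols chosen by function. Of these, 36 were measured by at least 1 probe set that named the gene alone, out of 18193 genes measured in that way. No probe set named the tetraspanin gene Cd63 in the annotation used here, so it was not analysed. The brightest probe set of each gene, by its mean over the 6 arrays, was taken.

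The lysosome is an acidic compartment in which sugars, lipids and proteins are broken down by hydrolases, most of which reach it by way of mannose 6-phosphate tags and their receptors. Its surface is also where the kinase complex mTORC1, of which Raptor is the defining subunit, is recruited and activated when amino acids are plentiful. Active mTORC1 keeps the transcription factors TFEB, TFE3 and MITF out of the nucleus, and these factors bind E-box elements near the starts of many lysosomal genes.

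RNA of sorted bone marrow cells was measured on 6 one-colour expression arrays, 3 of Raptor mutant and 3 of wild type mice, all on a c57bl/6 background. The gate took cells without Flt3 or lineage markers that carried Sca1 and cKit, a fraction rich in stem and progenitor cells. Mutant mice carried loxP sites around exon 6 of both copies of Raptor (gene Rptor) together with the MxCre transgene. The wild type group had the same floxed alleles without the transgene. The Mx promoter that drives the recombinase responds to interferon and is not restricted to one blood lineage. Both groups were given polyinosinic-polycytidylic acid (pIpC), which induces interferon, with 3 doses of 15 µg per g given within 5 days, and the sort followed 5 weeks later. The labels do not say whether an array stands for 1 mouse or for a pool, and every p-value below speaks only of variation among arrays, part of which may be technical.

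Median log2 intensity ran between 6.85 and 6.94 over the 6 arrays, and where 3 values are given for a group they are in the order of arrays 1, 2 and 3. The brightest Rptor probe set read 8.68, 7.99 and 8.33 on mutant arrays 1, 2 and 3, against 8.57, 8.17 and 7.59 in wild type cells, so the groups overlapped. Dimmer Rptor probe sets differed in sign, with log2 fold changes (mutant minus wild type) of -0.32 and 0.99. The place of these probes in the transcript was not examined, so Rptor checks neither the deletion nor the labels. The Y-linked gene Kdm5d was at 3.69 to 3.88 on the mutant arrays and at 3.60 on wild type array 1, but at 10.55 and 9.53 on wild type arrays 2 and 3. Sex-linked signal therefore divided the wild type arrays, and results are also given from a fit with Y-linked signal added, called the Y covariate below, whose genotype term rests on the mutant arrays against wild type array 1. Of the markers of the gate, Kit was at 10.71 to 10.94 on mutant and 10.72 to 11.17 on wild type arrays. Flt3, which the gate excluded as a surface protein, was at 9.64 to 10.18 on mutant and 9.51 to 10.79 on wild type arrays. Sca1 (gene Ly6a) was not analysed here.

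Of the 37 listed genes, 34 (Cd63 included) matched a promoter window in the RefSeq table (GRCm38.p6, 300 bases around an annotated start, most of them upstream), and 10 of these held the E-box core CACGTG. The same 10 genes held the longer TCACGTG, searched on both strands. That was 29.4% of genes in the list with a window. Over all genes with a window the share was 8.09% for the core and 4.29% for the longer motif, of which the core is a part. Among measured genes of the brighter 50% by mean the shares were 12.5% and 7.5%, and among 63 further lysosomal genes they were 25.4% and 23.8%. Some genes have several windows, and over all 32851 windows the shares were 7.15% and 3.77%. A match of letters is a description of the sequence and not evidence of binding.

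The stretches below show the motif in capitals in the 5 genes with the smallest p-values among those that held it, because it is the element that the transcription factors named above bind; the other 24 of the 34 genes with a window did not hold it. All lie upstream of the start and are written 5′ to 3′ on the strand of the gene. They are at chr11:119267793-119267858 (Gaa, plus strand), chr9:114401000-114401065 (Glb1, plus strand), chr11:119355522-119355551 (Sgsh, minus strand), chr11:101069991-101070056 (Naglu, plus strand) and chr8:13159070-13159160 (Lamp1, plus strand). The Sgsh stretch overlaps the neighbouring gene Slc26a11 and is kept to 30 bases.
Gaa: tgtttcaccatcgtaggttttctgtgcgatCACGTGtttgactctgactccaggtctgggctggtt
Glb1: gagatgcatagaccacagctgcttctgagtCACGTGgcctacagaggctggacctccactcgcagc
Sgsh: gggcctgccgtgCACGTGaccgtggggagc
Naglu: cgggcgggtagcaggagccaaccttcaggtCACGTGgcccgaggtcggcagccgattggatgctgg
Lamp1: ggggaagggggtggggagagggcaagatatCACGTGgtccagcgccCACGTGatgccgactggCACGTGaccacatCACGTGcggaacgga

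Lamp1 held 4 copies of the core within 91 bases, and the other 4 genes held 1 each. Cln3, Mcoln1, Gla and Clcn7 held 2 copies and Arsa held 1. The 10 genes with the longer motif had a median log2 fold change of 0.20 (mutant minus wild type), with 7 above 0. The 23 measured genes with a window but without the motif had a median of 0.19, with 16 above 0. The genes with the motif ranged from Sgsh at -0.55 to Gaa at 0.97.

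**Figure D1:**
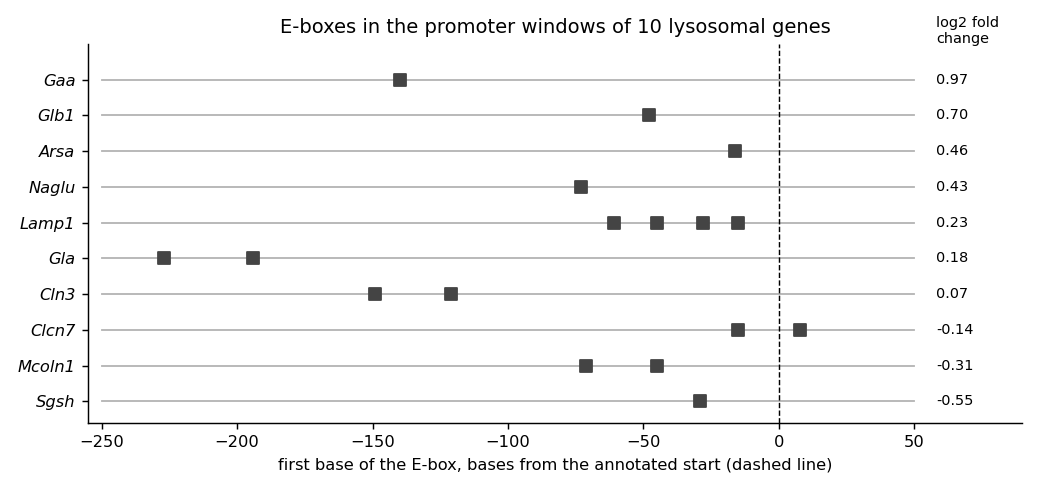
Position of each E-box core (square, first base) relative to the annotated start (dashed line) in the promoter windows of the 10 lysosomal genes that hold one, ordered by log2 fold change (mutant minus wild type, printed at right). Lamp1 holds 4 copies close to the start, and the genes with motifs span fold changes of -0.55 to 0.97.

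No lysosomal gene passed the adjusted test between mutant and wild type arrays. Over the list the median log2 fold change was 0.20, against -0.07 over all genes, and 26 of 36 genes (72.2%) were above 0, against 40.4% of all genes. These are bright genes, 33 of them in the brighter 50% of genes, and bright genes leaned the same way. Among those 50%, 24 of 33 lysosomal genes (72.7%) were above 0, against 58.5% of 9096 genes, with medians of 0.20 and 0.06. In limma, with p-values adjusted by Benjamini-Hochberg over all genes, 0 of 36 were called higher and 0 lower at an adjusted p under 0.05. The background was low, with 0.0550% of genes called higher and 0.0550% called lower.

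At an unadjusted p under 0.05, 7 of 36 lysosomal genes (19.4%) were higher in mutant arrays, against 5.81% of all genes, and 2 (5.56%) were lower, against 4.24%. In the brighter 50% the shares of higher genes were 18.2% for 33 lysosomal genes and 9.07% for all genes. The 3 mutant values all lay above the 3 wild type values in 8 of 36 genes (22.2%), against 8.08% of all genes. These were Galc, Glb1, Galns, Naglu, Gusb, Gaa, Npc2 and Lamp1. Within the brighter 50% this held for 6 of 33 lysosomal genes (18.2%), against 13.4% of all genes there. All mutant values lay below all wild type values in Sgsh, Fuca1 and Laptm5 (8.33%), against 7.98% of all genes, a share near the background.

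**Figure D2:**
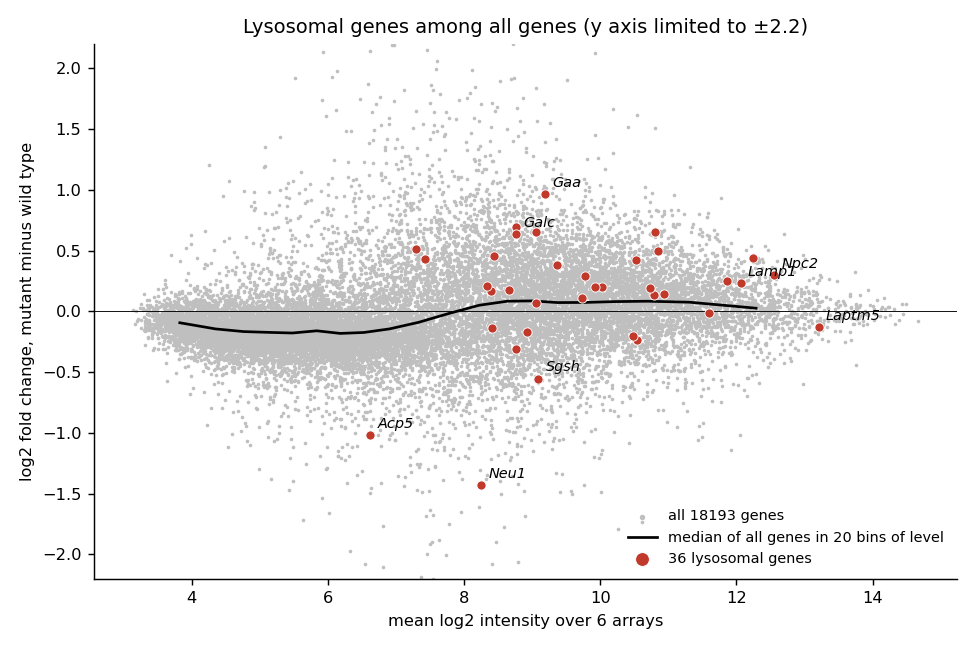
Log2 fold change (mutant minus wild type) against mean log2 intensity over 6 arrays, with all 18193 genes as grey dots, the median of all genes in 20 bins of level as a line, and the 36 lysosomal genes as red points. Brighter genes sit slightly above 0 as a whole, and most lysosomal genes lie in that brighter range, with Gaa highest and Neu1 lowest.

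The clearest difference was that of Gaa, the acid alpha-glucosidase that breaks down glycogen in the lysosome. Its log2 intensity was 9.70, 9.76 and 9.54 on mutant arrays 1, 2 and 3, against 9.11, 8.57 and 8.42 in wild type cells. The groups did not overlap, and wild type array 1 was the nearest to the mutants. The log2 fold change was 0.97 ± 0.21 (SE, n = 3 each), or 1.95-fold, with a limma adjusted p of 0.18. It was 1.17 without wild type array 1 and 0.59 with the Y covariate. The adjusted p ran from 0.074 to 0.64 over the alternatives tried. A dimmer Gaa probe set had a log2 fold change of 0.53.

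Enzymes of sphingolipid breakdown leaned higher, with 7 of 8 above 0, a median of 0.48 and 4 genes at an unadjusted p under 0.05. All 8 lay in the brighter 50% of genes, where 58.5% were above 0 and 9.07% were higher at that threshold. Over all genes the shares were 40.4% and 5.81%. When the lower 50% of genes were left out of the fit, 3 of the 8 enzymes were higher at that threshold. With the Y covariate the median of these enzymes was 0.14, with 2 genes at that threshold, and leaving out mutant array 1 or mutant array 2 left 1. Galc, the enzyme that splits galactosylceramide, was at 8.97, 9.41 and 8.87 in mutant cells, against 8.41, 8.51 and 8.42 in wild type cells. Its groups did not overlap, and the wild type values were tight. The log2 fold change was 0.64 ± 0.19 (SE, adjusted p = 0.31, limma), but a second probe set of nearly the same brightness gave 0.13.

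Glb1, the acid beta-galactosidase, was at 9.12, 9.11 and 9.10 in mutant cells, against 8.78, 8.64 and 7.81 in wild type cells. Wild type array 3 was the lowest, and the difference of 0.70 ± 0.26 (SE, log2, adjusted p = 0.45, limma) was 0.39 with the Y covariate and 0.40 without wild type array 3. Psap, the precursor of the saposins that present lipids to these enzymes, was at 11.63, 10.99 and 10.76 in mutant cells, against 10.18, 10.85 and 10.39 in wild type cells. The groups overlapped, since wild type array 2 exceeded mutant array 3, and the log2 fold change was 0.66 ± 0.27 (SE, adjusted p = 0.49, limma). The second Psap probe set gave 0.79. With the Y covariate the log2 fold change of Psap was 0.93.

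Asah1, the acid ceramidase, was at 11.37, 11.00 and 10.90 in mutant cells, against 10.94, 10.39 and 10.47 in wild type cells. Its log2 fold change was 0.49 ± 0.21 (SE, adjusted p = 0.50, limma), with wild type array 1 inside the mutant range, and was 0.16 with the Y covariate. The other members of this role were nearer 0 relative to their errors. The log2 fold changes were 0.46 ± 0.43 for Arsa (arylsulfatase A), 0.25 ± 0.18 for Hexa (the alpha subunit of beta-hexosaminidase), 0.18 ± 0.28 for Gla (alpha-galactosidase A) and -0.17 ± 0.25 (SE) for Smpd1, the acid sphingomyelinase.

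Enzymes that degrade glycosaminoglycans had a median log2 fold change of 0.21, with 6 of 7 above 0 and 1 below. Of all genes, 40.4% were above 0. Idua, alpha-L-iduronidase, was at 9.22, 9.79 and 9.13 in mutant cells, against 9.21, 8.60 and 8.37 in wild type cells. Wild type array 1 reached into the mutant range, and the difference was 0.66 ± 0.27 (SE, log2, adjusted p = 0.48, limma), and 0.23 with the Y covariate. Galns, which removes sulfate from galactosamine and galactose residues, was at 7.55, 7.67 and 7.45 in mutant cells, against 7.42, 6.81 and 6.90 in wild type cells, again with wild type array 1 next to the mutants. Its log2 fold change was 0.51 ± 0.20 (SE, adjusted p = 0.47, limma) and 0.15 with the Y covariate.

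Naglu, alpha-N-acetylglucosaminidase of heparan sulfate breakdown, was at 7.37, 7.63 and 7.94 in mutant cells, against 7.18, 7.16 and 7.32 in wild type cells. The groups did not overlap and no wild type array stood apart. The difference of 0.43 ± 0.19 (SE, log2, adjusted p = 0.50, limma) was 0.47 with the Y covariate. Gusb, beta-glucuronidase, also separated the groups, at 10.08, 10.12 and 10.16 in mutant cells, against 9.98, 9.99 and 9.79 in wild type cells, but the difference was only 0.20 ± 0.15 (SE, log2). Arsb (arylsulfatase B) and Ids (iduronate 2-sulfatase) had log2 fold changes of 0.21 ± 0.27 and 0.17 ± 0.16 (SE).

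Sgsh, the sulfamidase that acts in the same heparan sulfate pathway as Naglu, went the other way. It was at 9.04, 8.41 and 9.0 in mutant cells, against 9.28, 9.22 and 9.61 in wild type cells. All mutant values were below all wild type values, and the log2 fold change was -0.55 ± 0.22 (SE, adjusted p = 0.47, limma). It was -0.50 with the Y covariate and -0.60 without wild type array 1, and a dimmer probe set gave -0.14.

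**Figure D3:**
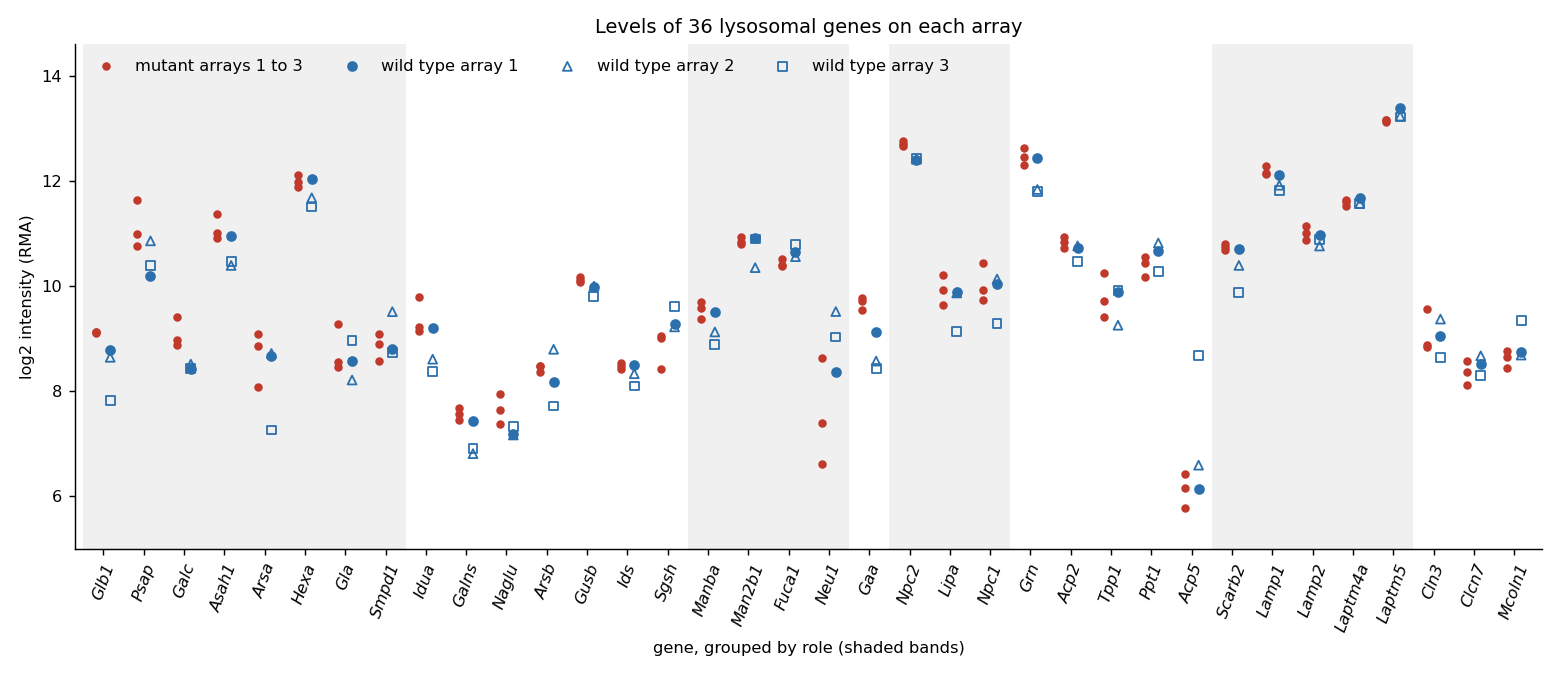
Log2 intensity of the 36 lysosomal genes on each array, with mutant arrays as red points left of the wild type arrays in blue (filled circle array 1, triangle array 2, square array 3). Shaded and white bands mark the roles from sphingolipid breakdown at left to channels and transporters at right; on many genes the filled circle of wild type array 1 sits at the level of the mutant points.

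Among enzymes that trim sugars from glycoproteins, 2 of 4 were above 0 and 2 below. Neu1, the lysosomal sialidase, was at 7.38, 8.63 and 6.60 in mutant cells, against 8.36, 9.51 and 9.03 in wild type cells. The mutant arrays were spread over more than 2.0 log2 units, and mutant array 2 exceeded wild type array 1. The log2 fold change of this probe set was -1.43 ± 0.51 (SE, adjusted p = 0.42, limma), the lowest in the list, and -0.84 with the Y covariate. The 2 dimmer Neu1 probe sets gave -0.23 and 0.68, so the probe sets differed in sign. Fuca1, the alpha-L-fucosidase, was at 10.37, 10.52 and 10.39 in mutant cells, against 10.64, 10.55 and 10.78 in wild type cells. These groups did not overlap, with a difference of -0.23 ± 0.15 (SE, log2). The other Fuca1 probe sets gave -0.18, 0.10 and -0.43. On the first of these, of nearly the same brightness, the groups overlapped. The beta-mannosidase Manba and the alpha-mannosidase Man2b1 had log2 fold changes of 0.38 ± 0.20 and 0.14 ± 0.19 (SE).

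The 3 genes of cholesterol handling were all above 0, with a median log2 fold change of 0.29. Without wild type array 3 the median was 0.045 with 2 of 3 above 0, and with the Y covariate it was 0.076. Npc2, which carries cholesterol inside the lysosome to the membrane protein Npc1, was at 12.76, 12.70 and 12.66 in mutant cells, against 12.40, 12.41 and 12.42 in wild type cells. Both groups were tight and separate, with a log2 fold change of 0.30 ± 0.14 (SE, adjusted p = 0.54, limma) that was 0.30 with the Y covariate and 0.29 without wild type array 1. All 4 Npc2 probe sets were above 0, between 0.25 and 0.93. Npc1 had a log2 fold change of 0.20 ± 0.28, and Lipa, the acid lipase that releases cholesterol from its esters, had 0.29 ± 0.25 (SE).

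Among the remaining soluble proteins, Grn (progranulin) was at 12.45, 12.30 and 12.63 in mutant cells, against 12.43, 11.83 and 11.80 in wild type cells. Wild type array 1 lay within the mutant range. The log2 fold change was 0.44 ± 0.21 (SE, adjusted p = 0.55, limma), and 0.06 with the Y covariate. Acp5, the tartrate-resistant acid phosphatase known from osteoclasts and macrophages, was the dimmest gene of the list, at 6.41, 5.78 and 6.15 in mutant cells, against 6.13, 6.59 and 8.67 in wild type cells. Its log2 fold change of -1.02 ± 0.60 (SE) was -0.24 without wild type array 3. The lysosomal acid phosphatase Acp2, the tripeptidyl peptidase Tpp1 and the thioesterase Ppt1 had log2 fold changes of 0.19 ± 0.16, 0.11 ± 0.27 and -0.20 ± 0.20 (SE). Their second brightest probe sets gave 0.29, 0.53 and 0.40.

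Among the 5 proteins of the lysosomal membrane the median log2 fold change was 0.14, with a range of -0.13 to 0.42 for the brightest probe sets and larger values for some dimmer ones. Laptm5, a membrane protein of blood cells and the brightest gene of the list, was at 13.16, 13.11 and 13.15 in mutant cells, against 13.38, 13.23 and 13.21 in wild type cells. The groups did not overlap, but the log2 fold change was -0.13 ± 0.14 (SE), with a 95% interval of -0.47 to 0.20. Lamp1, a heavily glycosylated protein that lines the membrane, was at 12.28, 12.12 and 12.14 in mutant cells, against 12.12, 11.91 and 11.82 in wild type cells. Its values just separated, with a log2 fold change of 0.23 ± 0.16 (SE), a 95% interval of -0.14 to 0.59, and 0.07 with the Y covariate.

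Lamp2, the partner of Lamp1, differed between its own probe sets. The brightest was at 11.14, 10.88 and 11.01 in mutant cells, against 10.96, 10.76 and 10.89 in wild type cells, and gave 0.14 ± 0.16 (SE, log2). The third of its 4 probe sets was at 10.26, 10.14 and 10.34 in mutant cells, against 9.45, 9.61 and 9.15 in wild type cells. There the groups were apart, with a log2 fold change of 0.84 ± 0.18 (SE) and a limma adjusted p of 0.23 over all probe sets. The other pair gave 0.14 and 0.79. Which transcripts each Lamp2 probe set detects was not analysed here.

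Scarb2, the receptor LIMP-2 that brings glucocerebrosidase to the lysosome, was at 10.75, 10.69 and 10.79 in mutant cells, against 10.71, 10.39 and 9.86 in wild type cells. Its difference of 0.42 ± 0.23 (SE, log2) was 0.09 with the Y covariate, and a dimmer Scarb2 probe set gave -0.05. Laptm4a was at 11.52 to 11.64 on mutant and 11.56 to 11.67 on wild type arrays, with a log2 fold change of -0.01 and a 95% interval of -0.35 to 0.32. The ion channel and transporter genes Cln3, Clcn7 (a chloride and proton exchanger) and Mcoln1 (a calcium channel) had log2 fold changes of 0.07 ± 0.26, -0.14 ± 0.18 and -0.31 ± 0.22 (SE).

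The brightest Mcoln1 probe set was at 8.64, 8.75 and 8.44 in mutant cells, against 8.73, 8.68 and 9.33 in wild type cells. The second was at 8.21, 8.11 and 8.30 in mutant cells, against 7.66, 7.24 and 7.02 in wild type cells. These 2 readings of Mcoln1 point in opposite directions, the second with a log2 fold change of 0.90 ± 0.20 (SE) and a limma adjusted p of 0.26 over all probe sets.

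**Figure D4:**
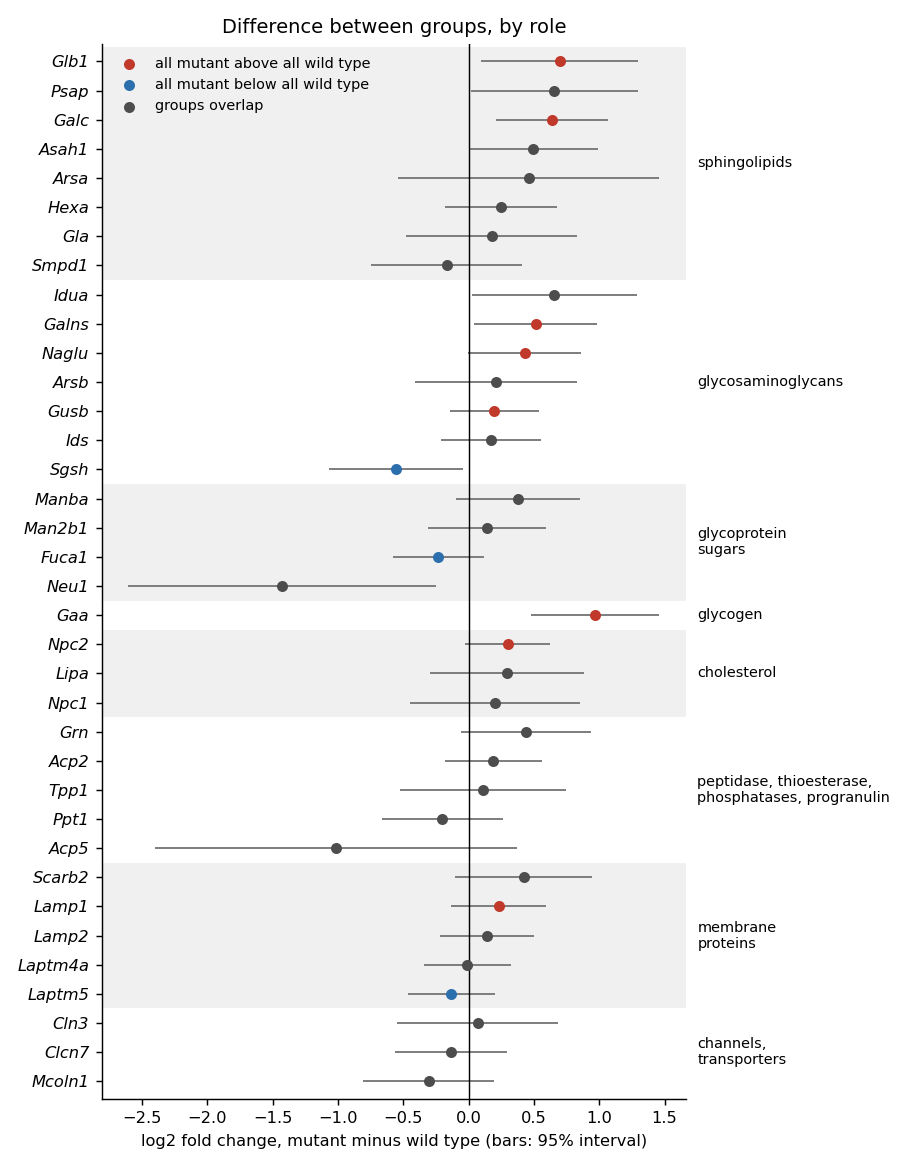
Log2 fold change (mutant minus wild type) of each lysosomal gene with its 95% interval, grouped by role; red marks genes whose mutant values all exceed the wild type values, blue the reverse, grey those that overlap. Sphingolipid enzymes sit mostly right of 0, membrane proteins and channels near 0, and Neu1 and Acp5 far left with wide intervals.

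Of the 36 genes, 26 had several probe sets, and in 13 of them all probe sets were on one side of 0. Counting only probe sets within 2 log2 units of the brightest, 12 of 18 such genes had 1 direction, and 6 had both. Of the 51 probe sets not used in the main comparison, 31 were above 0, 10 were higher in mutant arrays at an unadjusted p under 0.05 and 0 were lower. Over all 34945 probe sets naming 1 gene, 43.6% were above 0, and 5.73% were higher and 3.66% lower at that threshold. Using the mean of all probe sets of a gene, 27 of 36 genes were above 0 with a median of 0.20. Over all genes those values were 40.8% and -0.06. With that mean Mcoln1, Ppt1 and Ids changed sign, to 0.15, 0.22 and -0.06.

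**Figure D5:**
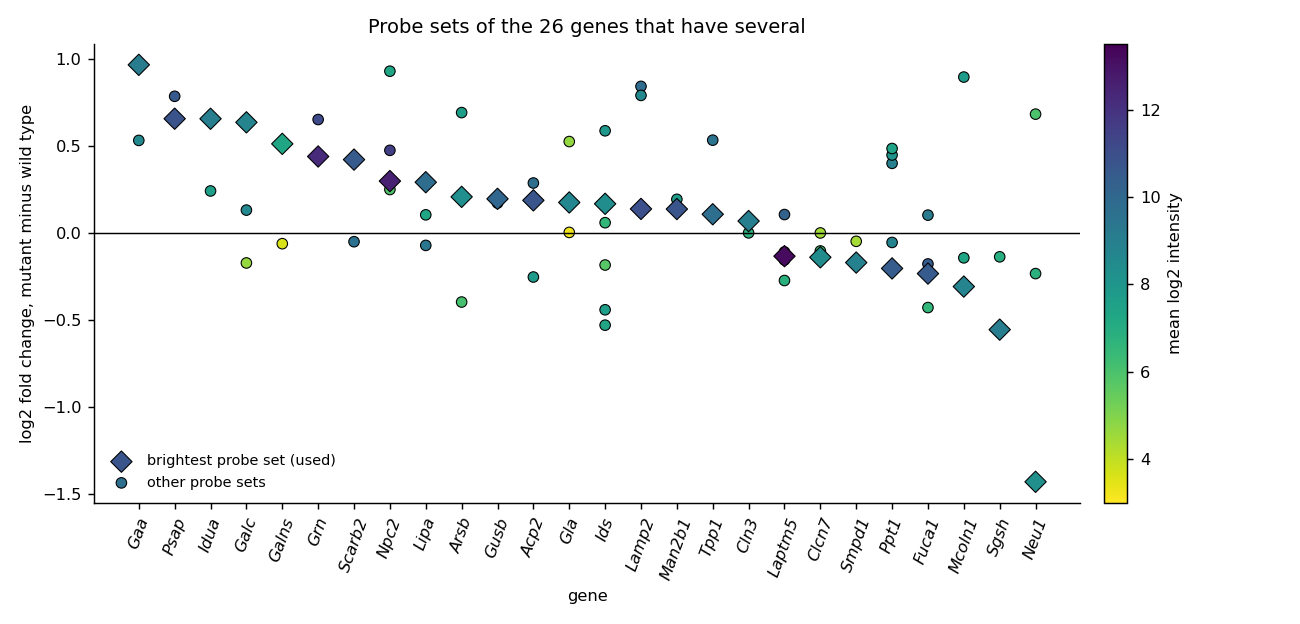
Log2 fold change of every probe set (mutant minus wild type) for the 26 lysosomal genes with several, ordered by the brightest probe set (diamond), with the others as circles coloured by mean log2 intensity. In 12 of the 26 genes the highest and lowest probe sets lie more than 0.5 log2 units apart, and in Neu1, Mcoln1, Ids and Arsb more than 1.

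The arrays of the wild type group did not hold the lysosomal genes at one level. Against each gene's mean over all arrays, the median deviation was 0.16, 0.06 and 0.07 on mutant arrays 1, 2 and 3, against 0.09, -0.07 and -0.26 for wild type arrays 1, 2 and 3. Wild type array 1 thus lay within the range of the mutant arrays, and wild type array 3 was low. The split of the wild type arrays was not particular to these genes. Over all probe sets, wild type array 1 correlated at 0.984, 0.983 and 0.977 with mutant arrays 1, 2 and 3. Its correlations with wild type arrays 2 and 3 were 0.962 and 0.967. It exceeded the lowest mutant array in 25 of 36 lysosomal genes and in 5996 of 9096 genes of the brighter 50%. The mutant mean exceeded wild type array 1 in 21 of 36 genes, array 2 in 23 and array 3 in 27. Among the brighter 50% of all genes those shares were 53.5%, 54.0% and 59.1%, against 58.3%, 63.9% and 75% for the lysosomal genes. Leaving out wild type array 3 lowered the median log2 fold change to 0.13 with 22 genes above 0. Over all genes the median was then -0.03, with 44.1% above 0. Leaving out wild type array 1 gave 0.25 with 27 genes above 0, beside -0.11 and 38.9% over all genes. The Y covariate gave a median of 0.07 with 24 of 36 genes above 0, beside 0.04 and 57.0% over all genes. The part of sex in these differences was not tested.

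The spread within groups differed as well. The median SD of a lysosomal gene was 0.17 on mutant and 0.33 on wild type arrays, and the wild type SD was the larger in 25 of 36 genes (69.4%), against 75.8% of all genes. Gla, Ids and Lamp2 lie on the X chromosome. Their log2 fold changes of 0.18, 0.17 and 0.14 were 0.13, 0.0055 and 0.04 with the Y covariate.

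Other lysosomal genes were taken from a further list of 87, of which 77 were measured. At an unadjusted p under 0.05, 15 were higher and 3 lower in mutant arrays, against 5.81% and 4.24% of all genes. Of the 77, 44 were above 0 and the median was 0.05, against 40.4% and -0.07 over all genes. Among the 9096 brighter genes, 9.07% were higher and 4.95% lower, 58.5% were above 0 and the median was 0.06. Not all of the 77 are among those brighter genes. The number above 0 and the median were near those of the brighter genes, whereas the number higher was above both backgrounds. In limma 0 were called at an adjusted p under 0.05. Among membrane proteins Cd68, a lysosomal glycoprotein of macrophages, was at 9.70, 9.26 and 9.20 in mutant cells, against 8.21, 7.76 and 7.70 in wild type cells, with a log2 fold change of 1.5 ± 0.21 (SE, adjusted p = 0.078, limma). Ctns, the cystine exporter, had one of 0.79 ± 0.21 (SE, adjusted p = 0.25, limma), and Gpnmb, a glycoprotein of macrophages and pigment cells, had 3.32 ± 0.67 (SE, adjusted p = 0.16, limma). Among hydrolases Scpep1, a serine carboxypeptidase, had one of 1.59 ± 0.32 (SE, adjusted p = 0.16, limma). Pla2g15, a lysosomal phospholipase, had one of -0.72 ± 0.24 (SE, adjusted p = 0.40, limma).

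Of 16 sorting genes, 1 was higher and 1 lower at an unadjusted p under 0.05, and the median was 0.05. These counts were near the background of 5.81% of all genes higher and 4.24% lower. Sort1, the receptor sortilin that carries hydrolases to the lysosome, was at 9.62, 9.42 and 9.26 in mutant cells, against 10.35, 10.69 and 10.77 in wild type cells. The groups were well apart, with a log2 fold change of -1.17 ± 0.18 (SE, adjusted p = 0.099, limma). Vps26a, a subunit of the retromer that returns such receptors, had one of 0.37 ± 0.15 (SE, adjusted p = 0.46, limma).

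Of 15 measured genes for mTORC1 docking and the factors that bind E-boxes, 6 were higher and 0 lower at an unadjusted p under 0.05. Among all genes, 5.81% were higher and 4.24% lower. Fnip2, a partner of folliculin, was at 10.28, 9.83 and 9.99 in mutant cells, against 8.54, 8.94 and 8.88 in wild type cells, a log2 fold change of 1.25 ± 0.19 (SE, adjusted p = 0.099, limma). Rragd, a GTPase that docks mTORC1, had one of 0.98 ± 0.23, and Flcn (folliculin) had 0.76 ± 0.19 (SE). Mitf, named after its value was seen like Tfeb and Tfe3, had one of 0.80 ± 0.24 (adjusted p = 0.31, limma), whereas Tfeb had -0.10 ± 0.16 and Tfe3 0.13 ± 0.23 (SE). None of these genes passed the adjusted test.

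Markers of other cells differed between the groups beside the lysosomal genes. In bulk RNA of a sorted fraction, fewer cells of a type and less RNA per cell cannot be told apart. At an unadjusted p under 0.05, 5.81% of all genes were higher and 4.24% lower in mutant arrays, the background for each marker list below. Of 23 measured macrophage and dendritic cell markers, 8 were higher and 1 lower at that threshold. Their summed intensity was 7215 to 14970 on mutant and 3654 to 5242 on wild type arrays. The sum is of linear values, so the brightest markers weigh most in it. These were H2-Ab1, H2-Aa, Cd74 and H2-Eb1, with mean log2 intensities of 11.14, 9.92, 9.52 and 9.26. In the list 14 of 23 were above 0, against 40.4% of all genes. The markers higher at that threshold were C1qb, H2-Aa, Cd74, Axl, H2-Eb1, Mertk, H2-Ab1 and Csf1r, and the lower one was Spic. C1qb, a complement component made by macrophages, was at 8.85, 7.55 and 9.03 in mutant cells, against 6.15, 6.16 and 5.40 in wild type cells, with a log2 fold change of 2.57 ± 0.41 (SE, adjusted p = 0.099, limma). H2-Aa and Cd74, which act in antigen presentation, had log2 fold changes of 2.13 ± 0.34 and 1.90 ± 0.41 (SE), with limma adjusted p of 0.10 and 0.18. Csf1r, the receptor for macrophage colony-stimulating factor, had one of 1.39 ± 0.55 (SE, adjusted p = 0.47, limma). The macrophage genes Adgre1, Mrc1, Timd4 and Vsig4, together with Spic, had means below the highest lower quartile of the arrays (5.37). Of 13 mast cell, basophil and eosinophil markers, 7 were higher and 0 lower at that threshold, with sums of 7039 to 10290 on mutant and 2510 to 3182 on wild type arrays. Of these, Hpgds (log2 fold change 2.92) and Gzmb (4.21) rose with limma adjusted p of 0.0071 and 0.013. Most granulocyte and monocyte markers went the other way, with 0 of 17 higher and 10 lower. Their sums were 20715 to 24688 on mutant and 37358 to 47484 on wild type arrays. Of these markers, Camp (log2 fold change -3.81) and Chil3 (-2.68) fell with limma adjusted p of 0.030 and 0.043. The list was not uniform, since 4 of the 17 were above 0, namely Mpo (0.16), Prtn3 (0.19), Ctsg (0.39) and Csf3r (0.07). Of 10 stem and progenitor markers 1 was higher and 5 lower, with sums of 19381 to 20806 on mutant and 22688 to 25371 on wild type arrays. The part of these markers in the lysosomal differences was not tested.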

How the data were processed

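The deposited table holds a linear intensity for each probe set on each array. RMA is the tool in the submitters' processing notes; version and settings: not given in the sources used here. RNA was extracted with a PicoPure kit and amplified with the Ovation Pico WTA system, per the labels' protocols. Log2 was taken of the deposited intensity. Of 45101 probe sets, 34945 named 1 gene; controls and probe sets naming several genes (932) or none (9160) were left out. The brightest probe set per gene gave 18193 genes. The test was limma 3.58.1 (lmFit, eBayes; R 4.3.3) of mutant minus wild type, 3 arrays each, two-sided, without covariate, adjusted by Benjamini-Hochberg over all genes, called at 0.05. Tested on simulated data for this comparison over 18193 genes, it called 18 of 67 genes changed by 1 log2 unit and 60 of 67 changed by 2. It also called 58 of 66 changed by 3, and 9 unchanged genes over all sizes. The simulation gave both groups the same SD per gene, whereas the wild type SD was mostly the larger in the data. The members, lists, motifs and tests were chosen with earlier results of these data known. The rule for named genes took all members, Rptor, Xist, Eif2s3y and Kdm5d, up to 4 genes per direction with the smallest p in each other lysosomal list, and the 3 with the smallest p in each marker list; not all are printed. Mitf, Tfeb, Tfe3, Kit, Flt3, and macrophage and granulocyte markers beyond the first 3 were named after their values were seen. Promoters are from RefSeq (GRCm38.p6). Protein sequences were not used here. Array number limits the precision; arrays carry no read depth. Alternatives were a replicate block, quantile normalization again, median centring, the mean of probe sets, every probe set, filters on dim genes, trend and robust fitting, array weights, a Y-linked covariate (mean of Eif2s3y and Kdm5d) and leaving out each array.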

Additional observations from a re-analysis of the deposited data

How the results depend on the processing

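No member was called at an adjusted p under 0.05 under any of the 16 alternatives. Members above 0 numbered 22 to 27 of 36, or 24 of 33 with the lower 50% of genes left out, and their median kept its sign, from 0.07 to 0.25. The share of all genes or probe sets above 0 ran from 38.9% to 57.0%, or was 58.5% with the lower 50% left out. Of 573 member values, 552 kept their direction. Those that changed sign were, with the mean of probe sets, Ids (-0.056), Ppt1 (0.22) and Mcoln1 (0.15); with array weights Laptm4a (0.0024); and with the Y-linked covariate Hexa (-0.014), Smpd1 (0.060), Man2b1 (-0.064) and Tpp1 (-0.13). Leaving out single arrays gave log2 ranges across 0 for Gla (-0.083 to 0.37), Tpp1 (-0.12 to 0.30), Laptm4a (-0.038 to 0.024), Cln3 (-0.16 to 0.24), Smpd1 (-0.31 to 0.077), Man2b1 (-0.046 to 0.23), Arsa (-0.020 to 0.75), Arsb (-0.049 to 0.49) and Npc1 (-0.062 to 0.36). Members higher at an unadjusted p under 0.05 (7) numbered 4 after quantile normalization again, 3 with the Y-linked covariate and 2 to 10 without single arrays. Those lower (2, Neu1 and Sgsh) numbered 0 with the mean of probe sets, array weights or the Y-linked covariate, 1 with trend and robust fitting, and 0 to 2 without single arrays. Over all genes, 10 called higher became 6 with the replicate block, 16 with the mean of probe sets, 6 without the lower 50%, 20 with trend and robust fitting, 6 with array weights, 0 with the Y-linked covariate and 4 to 25 without single arrays. The 10 called lower became 4 with the replicate block or every probe set, 20, 2 and 0 under trend and robust fitting, array weights and the Y-linked covariate, and 1 to 7 without single arrays. Under the Y-linked covariate limma had 597 genes higher and 552 lower at an unadjusted p under 0.05. The causes were not tested. The labels do not say that replicate numbers pair the arrays. Deviations of same-numbered arrays correlated at 0.18, -0.03 and 0.06, and those of other pairs at -0.16 to 0.09. With so few arrays these values cannot exclude a pairing. All-gene medians of -0.07 became 0.04 with the Y-linked covariate and 0.06 without the lower 50%.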
